A study of Mus musculus with 2 samples.

Results

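The let-7 genes that lie apart from the Mir99/100-Mir125 clusters were described in C2C12 myotubes. These are Mirlet7b, Mirlet7c-2, Mirlet7d, Mirlet7f-1, Mirlet7a-1, Mirlet7g, Mirlet7i, Mirlet7f-2 and Mir98, 9 genes of the 2202 annotated miRNA genes counted. They were chosen by name and genomic position. C2C12 is a mouse line of myoblasts from injured thigh muscle of C3H mice, whose cells fuse into multinucleated myotubes in culture. The study sequenced small RNA from cells taken 72 h after the start of differentiation. It comprised 1 group of 2 biological replicates and included no undifferentiated or treated cells. Levels were therefore compared among genes and between the replicates.

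The let-7 miRNAs pair with target mRNAs through a shared seed near their 5′ end and lower the output of those mRNAs. Their classical targets include Hmga2, Lin28 and Ras family genes, and mature let-7 accumulates as many cell types leave proliferation and differentiate. In human cells, most let-7 precursors of the kind studied here carry a short 3′ overhang that is extended by a single uridine before Dicer cleavage. The let-7 precursors of the Mir99/100-Mir125 clusters lack that requirement. The RNA-binding proteins Lin28a and Lin28b block let-7 maturation by binding the terminal loop of the precursor, in which GGAG is a known contact. Their mRNAs were not measured by this assay.

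The 9 genes encode 8 distinct mature 5p sequences, printed here because their small differences decide which reads can be assigned to which gene. All 9 carry the same seed, bases 2 to 8, shown in capitals. Sequences are from RefSeq on GRCm38.p6, in which all 9 genes were matched.
let-7b-5p: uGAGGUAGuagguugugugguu
let-7i-5p: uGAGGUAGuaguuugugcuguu
let-7g-5p: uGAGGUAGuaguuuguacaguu
let-7d-5p: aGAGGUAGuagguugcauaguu
miR-98-5p: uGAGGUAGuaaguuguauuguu
let-7f-5p: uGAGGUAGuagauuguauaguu
let-7c-5p: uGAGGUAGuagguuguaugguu
let-7a-5p: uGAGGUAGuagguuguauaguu

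Counted from 1 at the 5′ end and relative to let-7a-5p, let-7c-5p differs by A19G and let-7f-5p by G12A. The let-7b-5p sequence carries A17G and A19G, so a single base separates it from let-7c-5p. The let-7g-5p sequence carries G12U and U18C, and let-7i-5p carries G12U, A17G, U18C and A19U. The let-7d-5p sequence differs by U1A and U16C, and miR-98-5p by G11A and A19U. Each of let-7b, let-7i, let-7g, let-7d and miR-98 has a 5p sequence found in no other annotated hairpin. The other 4 genes share theirs: Mirlet7f-1 with Mirlet7f-2, Mirlet7c-2 with Mirlet7c-1, and Mirlet7a-1 with Mirlet7a-2. Mirlet7a-1 and Mirlet7c-2 also share their 3p sequence, cuauacaaucuacugucuuucc, whereas the 3p sequences of Mirlet7f-1 and Mirlet7f-2 are each found in 1 hairpin. The authors' tables set multimapping reads apart in a line of their own, which held 22.0% of the reads of replicate 1 and 17.9% of those of replicate 2. The values of the 4 sharing genes therefore leave out reads of the full shared sequences and are no measure of mature let-7a, let-7c or let-7f. The tables give 1 count per hairpin, so reads of the 5p and 3p arms were not separated.

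The genes occupy 5 places in the genome, given on mm10. On chromosome 15, Mirlet7c-2 (85706603 to 85706697, plus strand) and Mirlet7b (85707319 to 85707403, plus strand) lie 716 bases apart, start to start, in exons of the long non-coding gene Lncppara. On chromosome 13, Mirlet7a-1 (48538179 to 48538272), Mirlet7f-1 (48537829 to 48537917) and Mirlet7d (48536012 to 48536114), all on the minus strand, lie in exons of the lincRNA gene 6720427I07Rik. On chromosome X, Mirlet7f-2 (151912346 to 151912428) and Mir98 (151913214 to 151913321), both on the plus strand, lie in an intron of Huwe1, a ubiquitin ligase gene. Mirlet7g lies alone on chromosome 9 (106178840 to 106178927, plus strand) in an intron of Wdr82. Mirlet7i lies alone on chromosome 10 (122985640 to 122985724, minus strand) within an exon of D630033A02Rik, annotated as a transcribed processed pseudogene.

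The libraries held 7581366 and 9865298 reads assigned to the sense strand of miRNA genes in replicates 1 and 2. Values are counts per 1000000 of those reads (CPM). A count of 3 reads, the limit that a count of 0 allows, corresponds to 0.396 and 0.304 CPM in replicates 1 and 2, and these limits and the intervals below cover counting error only. The cell type label was checked on 4 skeletal muscle miRNA genes, Mir206, Mir133b, Mir499 and Mir208b, which took 35.5% and 42.8% of the reads. Most of that was Mir206, at 340841 CPM in replicate 1 and 416794 in replicate 2. The muscle genes Mir1a-1, Mir1a-2, Mir133a-1 and Mir133a-2, not on that list, averaged 2.94, 3.02, 2.01 and 1.03 CPM; each has a copy with the same mature sequence, so these counts are uncertain in the way described above. Of 15 marker genes of blood, neurons, endothelium, liver, epithelium and embryonic stem cells, 8 were at 0 in both libraries, and the list summed to 309 CPM in replicate 1 and 223 in replicate 2. The 2 of these 15 above 2 CPM were the endothelial Mir126a, at 217 and 42.9 CPM, and the blood-cell Mir142, at 89.0 and 178 CPM. The list is not exhaustive, so its sum does not cover every marker of other cell types. Mir143 and Mir145a, of a cluster known from smooth muscle and not on the list, averaged 35574 and 2193 CPM.

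Most reads of the 9 let-7 genes came from Mirlet7b and Mirlet7i, and the leading gene was not the same in the 2 libraries. Together the 9 genes took 5.52% of miRNA reads in replicate 1 (95% exact Clopper-Pearson interval 5.50% to 5.53%) and 4.41% in replicate 2 (4.40% to 4.43%). Mirlet7b and Mirlet7i supplied 83.6% of these reads in replicate 1 and 92.6% in replicate 2. All 9 genes reached 2 CPM in both libraries, which 12.4% of all annotated miRNA genes did. Mean levels ran over 1271-fold, from Mirlet7b to Mirlet7a-1.

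**Figure D1:**
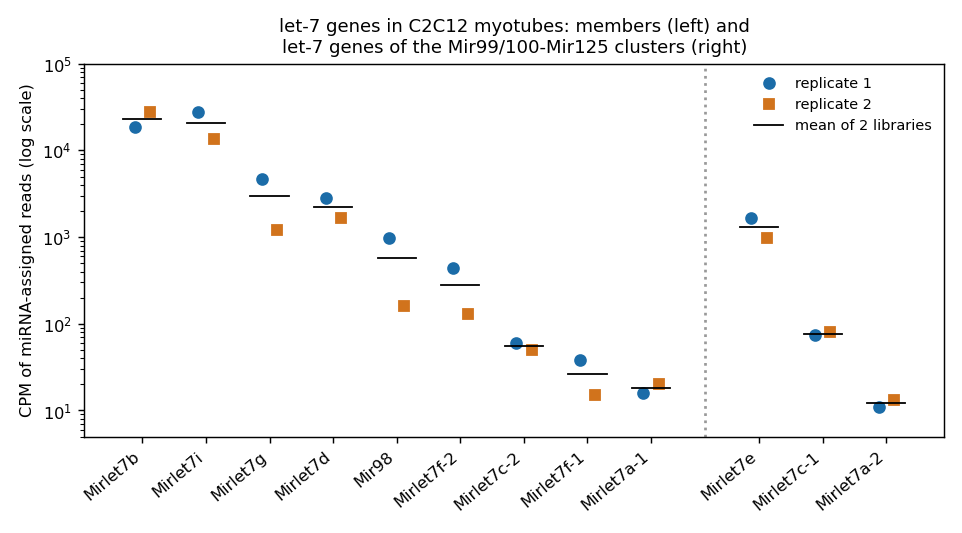
CPM of each let-7 gene on a log axis, with replicate 1 as circles, replicate 2 as squares and the mean of 2 libraries as a bar; the 9 genes stand left of the dotted line and the let-7 genes of the Mir99/100-Mir125 clusters right of it. Mirlet7b and Mirlet7i stand highest in both libraries, at 13491 CPM or more, and Mirlet7a-1 has the lowest mean of the 9, 18.1 CPM.

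Mirlet7b had 140546 reads (18538 CPM) in replicate 1 and 270298 reads (27399 CPM) in replicate 2, a mean of 22969 ± 6265 CPM (SD, n = 2). Mirlet7i had 209140 reads (27586 CPM) and 133090 reads (13491 CPM), a mean of 20538 ± 9967 CPM. The ranges of these genes overlapped, and their order was opposite in the 2 libraries. Mirlet7i was the 8th most abundant of all miRNA genes in replicate 1 and Mirlet7b the 10th, and in replicate 2 Mirlet7b was the 6th and Mirlet7i the 10th. Of the reads of the 9 genes, Mirlet7b gave 33.6% in replicate 1 (95% exact interval 33.5% to 33.8%) and 62.1% in replicate 2 (61.9% to 62.2%). Mirlet7i gave 50.01% in replicate 1 (49.9% to 50.2%) and 30.6% in replicate 2 (30.4% to 30.7%). The log2 ratio of Mirlet7b to Mirlet7i was -0.57 in replicate 1 and 1.02 in replicate 2, so these data do not say which of these genes leads. Nor do they say which is the major let-7 miRNA of the myotubes, since reads of the full let-7a, let-7c and let-7f sequences are not counted.

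**Figure D2:**
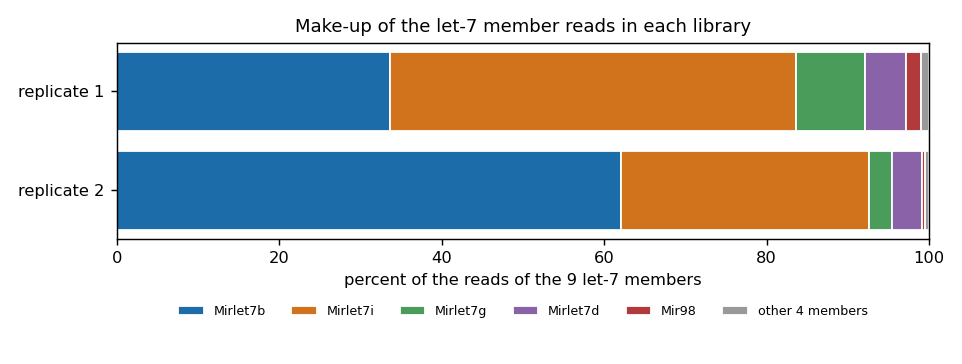
Percent of the reads of the 9 let-7 genes that each gene gave, one bar per library with replicate 1 above replicate 2; segments are genes and the grey segment is Mirlet7f-2, Mirlet7c-2, Mirlet7f-1 and Mirlet7a-1 together. Mirlet7i is the widest segment in replicate 1 (50.01%) and Mirlet7b in replicate 2 (62.1%).

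Mirlet7g and Mirlet7d formed the next level. Mirlet7g had 4669 CPM in replicate 1 and 1221 in replicate 2 (2945 ± 2438 CPM; SD, n = 2). Mirlet7d had 2825 CPM and 1656 CPM (2240.2 ± 827 CPM). Both lay below the lower value of Mirlet7i in every library, and they overlapped each other, with Mirlet7g ahead in replicate 1 and Mirlet7d ahead in replicate 2.

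The chromosome X genes came next. Mir98, the let-7 family member with a name of its own, had 989 CPM in replicate 1 and 160.1 in replicate 2 (575 ± 586 CPM; SD, n = 2). Mirlet7f-2 had 436 and 129 CPM (282 ± 216 CPM). Their ranges overlapped, although Mir98 was ahead in each library.

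The genes with the fewest reads were the remaining 3 with a shared 5p sequence. Mirlet7c-2 had 60.4 CPM in replicate 1 and 49.3 in replicate 2 (54.8 ± 7.88 CPM; SD, n = 2). Mirlet7f-1 had 38.3 and 14.9 CPM (26.6 ± 16.5 CPM), and Mirlet7a-1 had 16.0 and 20.2 CPM (18.1 ± 2.98 CPM). Mirlet7c-2 was above Mirlet7f-1 in both libraries without overlap, whereas Mirlet7f-1 and Mirlet7a-1 overlapped. Of the 8 neighbouring pairs in the order of means, 4 were separated by the ranges of the libraries: Mirlet7i above Mirlet7g, Mirlet7d above Mir98, Mirlet7f-2 above Mirlet7c-2, and Mirlet7c-2 above Mirlet7f-1.

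The order of the genes ran with the uniqueness of the 5p sequence. The 5 genes with a 5p sequence of their own held the 5 highest means, and together gave 99.0% of the reads of the 9 genes in replicate 1 and 99.5% in replicate 2. The 4 genes with a shared 5p sequence summed to 550.2 CPM in replicate 1 and 214 in replicate 2. Their counts leave out an unmeasured number of multimapping reads, as given above, so the gap between both sets of genes is not one of mature miRNA.

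Genes of 1 locus, which may be made from 1 primary transcript, differed widely in assigned reads. Mirlet7b exceeded Mirlet7c-2 by 8.69 ± 0.61 on the log2 scale (SD, n = 2), or 307-fold in replicate 1 and 556-fold in replicate 2. Mirlet7d exceeded Mirlet7a-1 by 6.91 ± 0.78 and Mirlet7f-1 by 6.50 ± 0.42 (log2). In each of these 3 ratios the lower gene is one whose 5p sequence is shared. Mir98 exceeded Mirlet7f-2, whose 5p sequence is also shared, by 1.18 on the log2 scale in replicate 1 and by 0.31 in replicate 2. The log2 ratio of Mirlet7a-1 to Mirlet7f-1 was -1.26 in replicate 1 and 0.44 in replicate 2, so its direction was not settled. Both genes of that ratio have a shared 5p sequence. No test was made of the ratios, since with 2 libraries the smallest p of an exact two-sided permutation of pairs is 0.5.

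Mirlet7f-1 and Mirlet7f-2, which share a mature 5p sequence, were not equally represented in assigned reads. Mirlet7f-1 had 290 and 147 reads in replicates 1 and 2, and Mirlet7f-2 had 3302 and 1277, so that Mirlet7f-2 was 11.4-fold and 8.66-fold higher. These counts leave out reads of the full shared sequence, so the folds are no measure of mature let-7f from either copy. The hairpins of this pair are printed because they differ outside the shared 5p sequence, with GGAG between the arms in capitals; that of Mirlet7b, which has no GGAG there, is given beside them.
Mirlet7f-1: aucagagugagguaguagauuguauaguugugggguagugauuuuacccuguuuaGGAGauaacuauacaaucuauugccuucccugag
Mirlet7f-2: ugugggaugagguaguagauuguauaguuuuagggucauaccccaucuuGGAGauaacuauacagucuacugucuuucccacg
Mirlet7b: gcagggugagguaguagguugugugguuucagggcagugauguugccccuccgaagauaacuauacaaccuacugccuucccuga

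The Mirlet7f-1 count is also the one that depends on strand. The annotated miRNA gene Gm24111 lies over Mirlet7f-1 on the plus strand, and in the count that ignored strand both were listed at 0. On its own strand Gm24111 had 2 reads in replicate 1 and 0 in replicate 2. Elsewhere strand mattered little: the 9 genes had 4 reads on the opposite strand in replicate 1, at Mirlet7b and Mirlet7f-1, and 0 in replicate 2.

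The motif GGAG, searched on the hairpin strand between the annotated 5p and 3p sequences, was found in 6 of the 9 hairpins. It was absent from those of Mirlet7b, Mir98 and Mirlet7c-2, whose levels ranged from 22969 CPM for Mirlet7b to 54.8 CPM for Mirlet7c-2. Of 644 RefSeq mouse hairpins with both arms annotated, 8.07% held it there, as did 24.6% of the 61 with 23 to 36 bases between the arms, the range of the let-7 hairpins. Of these 61, the 15 that hold it include the 6 let-7 hairpins above and those of Mirlet7c-1 and Mirlet7e. The share is therefore not one of hairpins outside let-7. A match describes letters only, and no match says only that these letters are not in this window.

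The let-7 genes inside the Mir99/100-Mir125 clusters gave few reads beside the 9 genes. Mirlet7e had 1679 CPM in replicate 1 and 969 in replicate 2, Mirlet7c-1 had 73.5 and 80.9 CPM, and Mirlet7a-2 had 11.1 and 13.2 CPM. In replicate 1 the 9 genes summed to 55157 CPM and these 3 genes to 1763 CPM, a 31.3-fold difference. In replicate 2 the sums were 44140 CPM for the 9 genes and 1063 CPM for the 3, a 41.5-fold difference. Mirlet7a-2 and Mirlet7c-1, like 4 of the 9 genes, have a shared 5p sequence and leave out multimapping reads, so these folds are no measure of mature let-7 from either set. Between copies, the log2 ratio of Mirlet7a-1 to Mirlet7a-2 was 0.57 ± 0.06 and that of Mirlet7c-2 to Mirlet7c-1 was -0.50 ± 0.31 (SD, n = 2). The 3p sequences of Mirlet7a-2 and Mirlet7c-1 are found in no other hairpin, unlike those of Mirlet7a-1 and Mirlet7c-2. Copies in these ratios therefore do not leave out multimapping reads alike. RefSeq also lists miRNAs named let-7j (gene Mir7j) and let-7k (Mir7k), which the choice of genes above leaves out. Mir7j had 85 and 56 reads and Mir7k had 4 and 9 reads, and Mir1961, which carries the same seed, had 0 in both libraries.

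The libraries differed in let-7 by more than counting error at 8 of the 9 genes, all of which had the 10 or more reads required for testing. Of all 415 genes tested, 55.7% differed, so the count among the let-7 genes is read against a high background. Of the let-7 genes, 7 were higher in replicate 1, a direction taken by 30.4% of all genes tested, and Mirlet7b alone was higher in replicate 2, a direction taken by 25.3%. The test was an exact two-sided binomial test with TMM effective library sizes and Benjamini-Hochberg adjustment over all genes tested. It compares these libraries and no conditions.

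Mir98 showed the widest difference of the 9 genes, 6.05-fold higher in replicate 1 (95% exact interval 5.73 to 6.39), the 18th largest of the 415 in size. Mirlet7g was 3.74-fold higher (3.67 to 3.82), Mirlet7f-2 was 3.29-fold higher (3.09 to 3.52) and Mirlet7f-1 was 2.51-fold higher (2.05 to 3.09; adjusted p = 1.7e-20, exact binomial test). Mirlet7i was 2.002-fold higher (1.99 to 2.02) and Mirlet7d 1.67-fold higher (1.64 to 1.71). Mirlet7c-2 was 1.20-fold higher in replicate 1 (1.05 to 1.37; adjusted p = 0.011, exact binomial test). Mirlet7b was 1.51-fold higher in replicate 2. For Mirlet7a-1 the log2 ratio of replicate 1 to replicate 2 was -0.37 with an adjusted p of 0.0501 (exact binomial test), just above the threshold of 0.05. Adjusted p-values of the other genes were below the range of the software.

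The calls at Mirlet7a-1 and Mirlet7c-2 changed between settings. With TMM computed over genes with 10 or more reads, Mirlet7a-1 was called higher in replicate 2 and Mirlet7c-2 was not called. With only genes of 100 or more reads tested, Mirlet7a-1 was called at an unchanged log2 ratio of -0.37. The median log2 ratio of replicate 1 to replicate 2 was 1.001 over the 9 genes and 0.02 over all genes tested. The change was 2-fold or more at 4 of the 6 let-7 genes averaging 100 CPM or more, and at 21.8% of all 133 tested genes of that abundance. Mirlet7i, the gene at the median of the 9, lay at the 2-fold limit. Its log2 ratio was 0.97 with DESeq2 size factors and 0.90 with TMM over genes with 10 or more reads. It was 0.998 in the count that ignored strand and 1.03 with library totals.

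**Figure D3:**
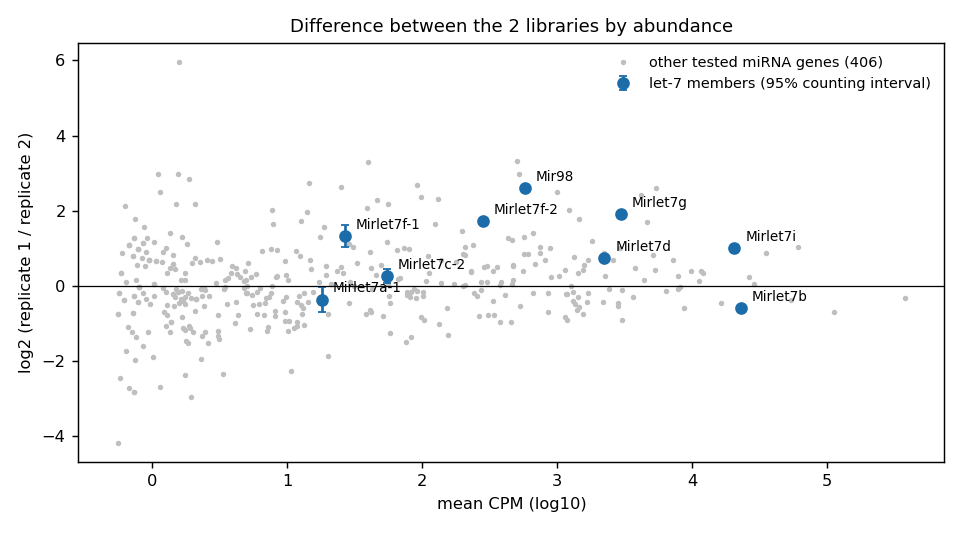
Log2 ratio of replicate 1 to replicate 2 against log10 of the mean CPM, with the 9 let-7 genes in blue with 95% counting intervals and the other tested miRNA genes in grey. Mir98 stands highest of the 9 (2.60), Mirlet7b lowest (-0.59), and the interval is wider than the symbol only at the genes with few reads.

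The difference between libraries is given beside the base make-up of the 5p sequence, first for the 5 genes whose 5p sequence is their own, a restriction made after the values were seen. Mir98, with 7 G or C bases among 22, had a log2 ratio of replicate 1 to replicate 2 of 2.60, and Mirlet7g, with 8, had 1.90. Mirlet7i and Mirlet7d, with 9 each, had 1.001 and 0.74. Mirlet7b, with 10, had -0.59. The values of the 4 genes with a shared 5p sequence do not keep to this order. Their counts leave out reads of the full 5p sequence, so its base make-up need not be that of the reads counted. These values therefore cannot decide whether the order extends to those genes. Mirlet7f-2 and Mirlet7f-1, with 7 G or C bases as in Mir98, had 1.72 and 1.33, both below Mirlet7g. Mirlet7a-1, with 8 as in Mirlet7g, had -0.37, and Mirlet7c-2, with 9, had 0.26. These 9 genes share the same libraries and differ by few bases, so they are not independent points and no test was made.

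The same values were taken for other miRNA genes, with an abundance limit and G+C bins likewise set after the values were seen. Among 160 genes outside the let-7 family that averaged 10 CPM or more and have a RefSeq 5p sequence, the median log2 ratio of replicate 1 to replicate 2 was 1.001 over 26 genes with under 40% G+C (quartiles 0.10 and 1.29). It was 0.33 over 65 genes with 40% to 50% (-0.29 and 0.87) and 0.06 over 69 genes with 50% or more (-0.44 and 0.36). The quartile ranges overlap, 20, 37 and 36 genes of these bins were higher in replicate 1, and no test was made. Genes that share a 5p sequence with another gene were not left out of the 160, unlike in the let-7 set given first. The 160 genes also share the same libraries and are not independent points. A 5p sequence was at hand for 81.1% of the 212 tested genes of that abundance, let-7 genes included. Counts do not separate the arms, so the G+C used for a gene need not be that of the arm read. The part of base make-up in the let-7 differences was not tested, and neither was that of multimapping reads, which in replicates 1 and 2 were 44.6% and 33.4% as many as the reads assigned to genes. Of the 2 listed markers of other cell types above 2 CPM, Mir126a was higher in replicate 1 (217 and 42.9 CPM). Mir142 was lower there (89.0 and 178 CPM). The part of these markers was not tested either.

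**Figure D4:**
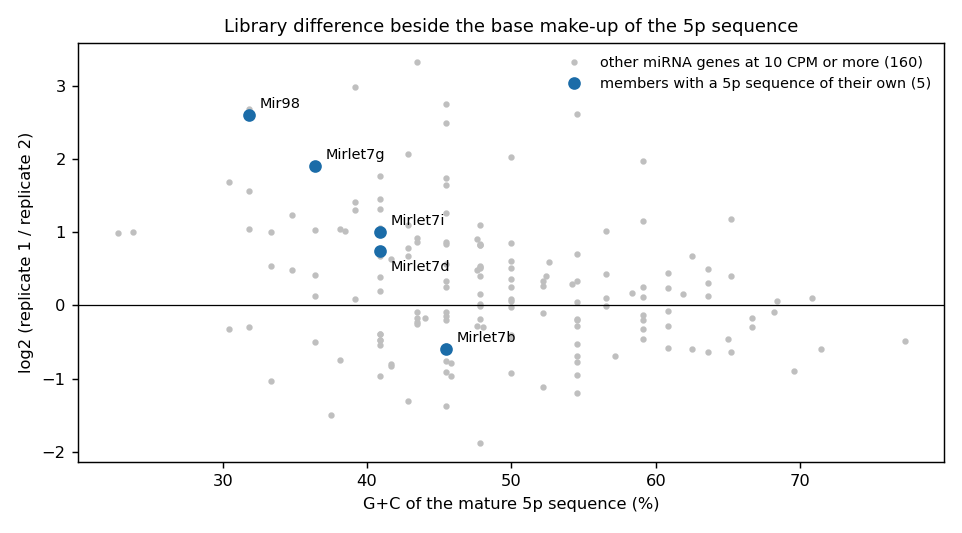
Log2 ratio of replicate 1 to replicate 2 against the percent of G and C bases in the mature 5p sequence, with the 5 let-7 genes that have a 5p sequence of their own in blue and 160 other miRNA genes in grey. The blue points run between 2.60 at Mir98 and -0.59 at Mirlet7b, the 4 let-7 genes with a shared 5p sequence are not drawn, and the grey points scatter widely at every G+C value. Genes that share a 5p sequence were not left out of the grey points. Counts cover the whole hairpin, so the 5p sequence plotted need not be the arm that was read.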

How the data were processed

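Small RNA from 1 group of 2 C2C12 myotube cultures was analysed. The authors deposited raw counts of reads for each miRNA gene, made on mm10 with annotation M21, per the notes deposited beside the tables; no aligner, counter or trimming tool is named there or in the labels. Each has counts ignoring strand, on the sense strand and on the opposite strand. The 4 summary lines (unmapped, multimapping, no-feature and ambiguous reads) were left out of library sizes: unmapped reads were 22.7% and 23.1%, multimapping 22.0% and 17.9%, and no-feature 5.88% and 5.57% of 15349205 and 18450359 reads. All 2202 identifiers matched GENCODE M21 (GRCm38, which is mm10).

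CPM used sense-strand gene reads as the total. Libraries were compared with the exact binomial test over 415 genes with 10 or more reads, using TMM factors from edgeR 4.0.16 (R 4.3.3) computed over all genes, at a threshold of 0.05. The quasi-likelihood test was not used, since there is no contrast. Folds between libraries use TMM sizes and so differ slightly from CPM ratios. Ratios between genes added 0.5 reads. The biological coefficient of variation was 0.435 over 274 genes. Python 3.11.15 with scipy 1.17.1 was used, and the test was checked on simulated data. The simulation held counting error only, as the test assumes, and no spread between replicates, so it does not show how the test performs on these libraries. Alternatives were the count ignoring strand, other denominators, library totals or DESeq2 1.42.0 size factors, other minimum counts and added reads, each library left out, other detection limits and TMM over fewer genes; the last 2, and the ratio of Mirlet7b to Mirlet7i, were added after the values had been seen. The genes and lists were chosen with earlier results of these data known. The named genes were the 9 let-7 genes, the 3 let-7 genes of the Mir99/100-Mir125 clusters and the markers. Genes that overlap a let-7 gene or share its seed were also named. Mir7j was added for its miRNA name. The Mir1a and Mir133a genes, Mir143 and Mir145a were added after their values were seen.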

Additional observations from a re-analysis of the deposited data

Results flagged for a closer look

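Multimapping reads, which the comparisons above do not use, numbered 3378438 in replicate 1 and 3295854 in replicate 2. They are named here because they are a large class of reads outside the comparisons, and the tables do not say which genes they came from. A group of 2 libraries is too small to look for outlying libraries, and 1 group allows no comparison of groups.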

How the results depend on the processing

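With all reads as the denominator the 9 genes took 2.54% of reads, and 7.97% with the most abundant gene, Mir206, left out of it, against 4.96% of miRNA reads. In the count that ignored strand Mirlet7f-1 and Mirlet7e were listed at 0, so that log2 values there rest on the 0.5 reads added: 15.2 for Mirlet7d over Mirlet7f-1, -12.0 for Mirlet7f-1 over Mirlet7f-2, and 8.28 (reversed) for Mirlet7a-1 over Mirlet7f-1; the sum over the 3 clustered let-7 genes, which keeps the other 2, gave 9.11. Leaving out either library left the log2 ratio of Mirlet7a-1 to Mirlet7f-1 at -1.26 or 0.44 and that of Mirlet7b to Mirlet7i at -0.57 or 1.02, so both signs rest on 1 library. The 9 genes gave 9 calls with DESeq2 size factors, 8 with library totals, 8 with a minimum of 1 read, 9 with a minimum of 100 reads, 8 with TMM over genes with 10 or more reads and 7 of 8 tested in the count that ignored strand. Over all tested genes these settings called 205 to 232, against 231. Mirlet7a-1 had a log2 ratio of replicate 1 to replicate 2 of -0.39 with DESeq2 size factors and -0.46 with TMM over fewer genes, and was called in both, as it was, at an unchanged -0.37, with a minimum of 100 reads. Under none of these settings did the difference between the libraries change direction at any of the 9 genes tested in it. All 9 genes also reached 10 CPM in both libraries, and 6 reached 100 CPM. No paired analysis was possible because the study has 1 group. With 2 libraries, differences between genes within the replicate spread were not resolved.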
